A study of Homo sapiens with 24 samples.

Results

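Kidney lineage transcription factors were followed in 2 human clear cell renal cell carcinoma (ccRCC) lines, A498 and 786-O. The 6 genes PAX8, PAX2, HNF4A, LHX1, WT1 and EMX2 were chosen by symbol, and each was found as 1 row among the 39321 genes of the count table. Poly(A) RNA was sequenced from 24 libraries in 8 groups of 3. Cells of each line received 20 nM of siRNA, either a non-targeting control or a pool against CD274, the gene of PD-L1. After 24 hours they were left without interferon-gamma (IFNγ) or given 50 ng/mL IFNγ for 24 hours, so that each line has a pair of groups with control siRNA, named Cnsi and Cnsi IFNγ, and a pair with the other siRNA, named PD-L1si and PD-L1si IFNγ. The silencing was transient, although the sample labels call the PD-L1si cells knockout, and nothing in the labels says that the 3 libraries of a group came from separate cultures, so p-values measure the spread between these libraries.

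These factors build the nephron. PAX2 and PAX8 are paired-box proteins that together specify the nephric lineage, and LHX1, a LIM homeobox protein, acts with them in the nephric duct and the renal vesicle. WT1 is a zinc finger protein of the metanephric mesenchyme that is later kept in podocytes, EMX2 is a homeobox protein of the ureteric bud epithelium, and HNF4A is a nuclear receptor that drives proximal tubule genes. PAX8 and PAX2 are used by pathologists as markers of renal tumours.

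Some limits of the libraries bear on these genes. Library totals were 19256316 to 27907526 counts in A498 and 26807875 to 30350461 in 786-O, and the lowest totals were those of A498 PD-L1si IFNγ, at 19256316 to 23263758. In the count table, 1475 genes with over 1000 counts in the A498 libraries were at 0 in all 786-O libraries, and 98.7% of those matched to GENCODE 44 carried another identifier version than that release, against 29.0% of genes with over 1000 A498 counts and any 786-O count. The rows of PAX2, HNF4A and WT1 were among the rows at 0 in all 12 786-O libraries and are treated as not measured there. Line and sequencing instrument cannot be told apart, since A498 was sequenced on a NovaSeq and 786-O on a NextSeq machine. Of 10 p53 target genes measured in both lines, 5 were higher in every 786-O library than in any A498 library and 2 the reverse, although A498 is known for intact p53 and 786-O for mutant p53, and each line keeps its label's name throughout. All 10 renal epithelial and ccRCC markers had a median above 1 CPM (counts per 1000000 library counts, scaled by TMM factors) in A498 and 6 of 10 did in 786-O, where 3 rows were at 0. The summed medians of endothelial, leukocyte and fibroblast markers were 0, 0.22 and 2.04 CPM in A498 and 0.554, 1.15 and 0.69 in 786-O. In 786-O 3 of the 4 fibroblast rows were at 0, so that list was barely measured there. Collecting duct markers summed to 0.152 CPM in A498 and 2.26 in 786-O. Podocyte markers summed to 1740 and 836 CPM, mostly from SYNPO at 1720 and 814, and 2 of 4 had a median above 1 CPM in each line. CD274 itself fell with PD-L1si in both lines, by 2.81 (A498) and 0.94 (786-O) on the log2 scale under IFNγ.

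The 6 genes lie on 5 chromosomes (GRCh38, positions from GENCODE 44). PAX8 spans chr2:113215997-113278921 on the minus strand, PAX2 chr10:100735396-100829944 on the plus strand and HNF4A chr20:44355699-44432845 on the plus strand. LHX1 spans chr17:36936785-36944612 on the plus strand, WT1 chr11:32387775-32435564 on the minus strand and EMX2 chr10:117542445-117549546 on the plus strand. The bases directly upstream of the annotated starts of PAX8, WT1 and PAX2 are shown, the first pair because both genes fell with IFNγ in A498 under at least 1 of the siRNAs and the last because no comparison of it passed the test. They were taken from RefSeq (GRCh38.p14), whose promoter table matched 5 of the 6 genes, all but LHX1, and each is written 5′ to 3′ on the strand of its gene with CG pairs in capitals.
PAX8, chr2:113278922-113279171, minus strand: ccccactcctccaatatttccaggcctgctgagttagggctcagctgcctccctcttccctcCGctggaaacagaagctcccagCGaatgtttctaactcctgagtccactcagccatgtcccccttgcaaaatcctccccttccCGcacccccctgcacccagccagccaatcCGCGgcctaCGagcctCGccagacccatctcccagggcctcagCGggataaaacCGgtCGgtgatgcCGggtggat
WT1, chr11:32435565-32435789, minus strand: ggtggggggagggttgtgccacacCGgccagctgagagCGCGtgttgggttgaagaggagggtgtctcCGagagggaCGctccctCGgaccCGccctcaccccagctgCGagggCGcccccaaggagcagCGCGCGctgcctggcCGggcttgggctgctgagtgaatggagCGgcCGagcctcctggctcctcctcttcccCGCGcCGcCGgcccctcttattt
PAX2, chr10:100735146-100735395, plus strand: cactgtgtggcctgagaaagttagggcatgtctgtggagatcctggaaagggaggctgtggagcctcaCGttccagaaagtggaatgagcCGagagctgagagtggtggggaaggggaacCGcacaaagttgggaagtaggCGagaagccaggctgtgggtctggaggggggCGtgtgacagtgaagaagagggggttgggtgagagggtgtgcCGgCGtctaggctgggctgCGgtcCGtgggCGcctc
The WT1 stretch held 19 CG pairs in 225 bases, PAX8 held 11 and PAX2 held 10 in 250 bases each, and the median of 35116 promoter windows of 250 bases was 11. In the 250 bases upstream of the RefSeq starts of the 5 matched genes, neither of 2 motifs searched on both strands was found. The RefSeq start lies 301 bases inside the GENCODE span for EMX2, so that this window is within the gene, and 25 bases inside it for WT1. These were the interferon-stimulated response element, GAAA and GAAA with any 2 bases between (in 3.02% of all windows), and the paired-domain core GTCACGC (2.2%). This says only that these letters are not in these windows.

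At baseline the factors stood at very different levels. In TPM (per 1000000 after scaling each gene for its exon length), PAX8 was highest in A498 Cnsi at 95.7 ± 0.586 TPM (SD, n = 3), followed by PAX2 at 18.4 ± 0.252, LHX1 at 6.06 ± 0.344 and WT1 at 5.08 ± 0.388. The LHX1 values (5.84 to 6.46) did not overlap those of WT1 (4.78 to 5.52), although these neighbours were the closest in the order. Their order rests on the scaling for exon length. In CPM it was reversed in A498 Cnsi, with LHX1 at 8.35 ± 0.537 and WT1 at 11.6 ± 0.872. In 786-O Cnsi, PAX8 stood at 91.5 ± 1.39 TPM and LHX1 at 22 ± 0.458. Levels of 1 line are not set against the other, because line and instrument cannot be told apart.

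HNF4A in A498 and EMX2 in both lines were close to absent from the reads. HNF4A had 7 reads in 4 of 12 A498 libraries, which is 0.0243 reads per 1000000 with an exact Poisson interval of 0.00977 to 0.0501 that covers counting error only. EMX2 had 0 reads of 288036956 in A498, with an exact Poisson interval of the same kind up to 0.0128 reads per 1000000. For scale, 3 counts over all 12 libraries would be 0.0104. In 786-O EMX2 had 1 read, in PD-L1si replicate 2. Neither gene could be tested, and HNF4A-AS1, which lies within the HNF4A span on the other strand, had 0 reads in A498 and 6 in 786-O. EMX2OS, the opposite-strand RNA of the EMX2 locus, had 6 reads in A498. In A498 4 of the 6 factors passed the filter on low counts. In 786-O PAX8 and LHX1 passed it and EMX2 did not, while PAX2, HNF4A and WT1 are treated as not measured there.

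**Figure D1:**
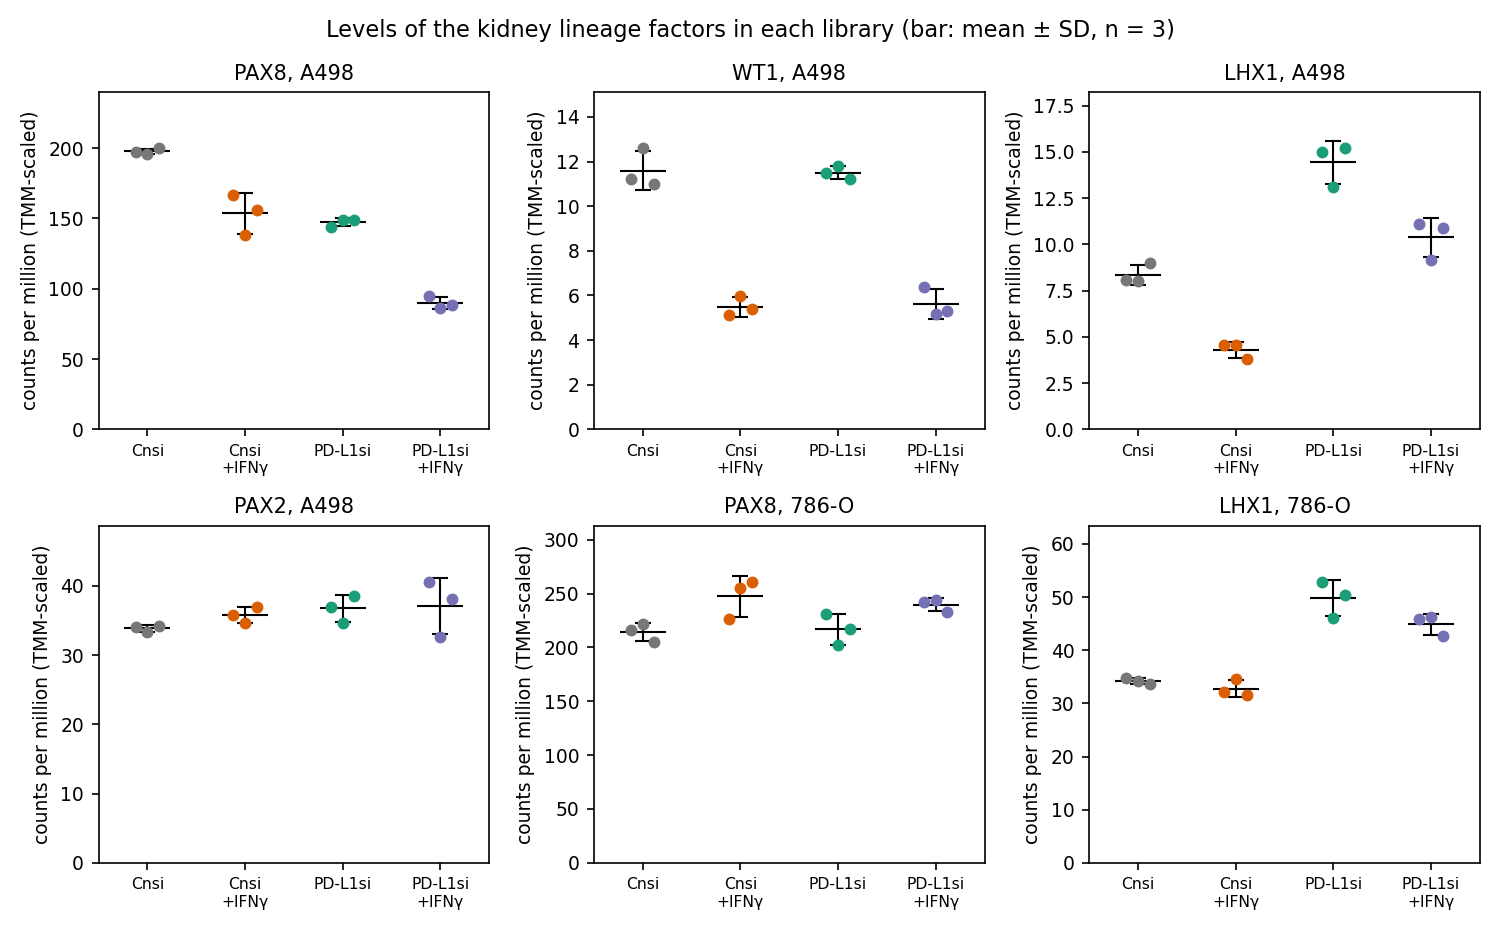
Levels of the 4 factors tested in A498 and the 2 tested in 786-O, in CPM scaled by TMM factors (vertical axis, from 0), by group. Points are libraries and bars are the mean ± SD of 3 libraries. In A498, WT1 separates by IFNγ alone, PAX8 is lowest with PD-L1si and IFNγ together, and LHX1 is highest with PD-L1si, while PAX2 stays between 32.6 and 40.6.

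WT1 fell to about the same low level with IFNγ in A498 whichever siRNA was present. The counts were 281, 316 and 276 in Cnsi and 122, 154 and 112 in Cnsi IFNγ. With PD-L1si they were 326, 280 and 314 without IFNγ and 146, 98 and 109 with it. The groups with and without IFNγ did not overlap, while those that differed only in siRNA did. In CPM, WT1 was 11.6 ± 0.872 in Cnsi and 5.49 ± 0.439 in Cnsi IFNγ, a log2 fold change of -1.07 (SE 0.0953, adjusted p = 3.43e-12). With PD-L1si the change with IFNγ was -1.02 (SE 0.0968, adjusted p = 1.9e-11), from 11.5 ± 0.3 to 5.61 ± 0.663 CPM. A gene was called changed at an adjusted p under 0.05 and a log2 fold change over 0.5 in size. The comparisons of PD-L1si with Cnsi gave 0.03 under IFNγ (95% interval -0.19 to 0.26) and -0.01 without it (-0.17 to 0.15), and the IFNγ effect differed between siRNAs by 0.05 (-0.22 to 0.32), none of which passed the test. In bulk RNA, fewer cells with WT1 and less WT1 per cell cannot be told apart, here or for the other genes.

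PAX8 stood lowest in A498 where IFNγ and PD-L1si were combined. The counts were 4945, 4925 and 5012 in Cnsi, 3988, 3556 and 3236 in Cnsi IFNγ, and 4094, 3527 and 4191 in PD-L1si. In PD-L1si IFNγ they were 2175, 1632 and 1825, below every other A498 library. The means were 198 ± 2.08, 154 ± 14.6, 147 ± 2.89 and 89.8 ± 4.56 CPM in that order of groups, and the ranges of Cnsi IFNγ (138 to 167) and PD-L1si (144 to 149) overlapped. PAX8 fell with IFNγ in PD-L1si cells by 0.71 on the log2 scale (SE 0.0512, adjusted p = 2.02e-14) and with PD-L1si under IFNγ by 0.77 (SE 0.0514, adjusted p = 2.19e-14). The single treatments gave -0.36 for IFNγ in Cnsi (SE 0.049, adjusted p = 5.37e-08) and -0.42 for PD-L1si without IFNγ (SE 0.0488, adjusted p = 1.01e-08), both under the fold threshold. On library totals without TMM factors, an alternative chosen after seeing the data, the former was -0.51 and passed. The IFNγ effect in PD-L1si minus that in Cnsi was -0.35 (95% interval -0.49 to -0.21, adjusted p = 0.000878), also under the fold threshold. The comparisons within a line share libraries, so their values stand side by side and do not support one another.

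LHX1 moved with both treatments in A498, in opposite directions. Its counts were 202, 202 and 225 in Cnsi and 109, 117 and 79 in Cnsi IFNγ. They were 427, 312 and 427 in PD-L1si and 255, 174 and 224 in PD-L1si IFNγ. In CPM the 4 groups did not overlap, with PD-L1si highest at 14.4 ± 1.16, then PD-L1si IFNγ at 10.4 ± 1.06, Cnsi at 8.35 ± 0.537 and Cnsi IFNγ lowest at 4.3 ± 0.436. LHX1 fell with IFNγ in Cnsi by 0.95 (SE 0.11, adjusted p = 1.98e-09) and rose with PD-L1si by 1.27 under IFNγ (SE 0.109, adjusted p = 8.77e-12) and by 0.8 without IFNγ (SE 0.0861, adjusted p = 2.26e-09). In PD-L1si cells IFNγ gave -0.48 (SE 0.0858, adjusted p = 1.06e-05), under the fold threshold. Without PD-L1si IFNγ replicate 1 or 3 or PD-L1si replicate 2 that value was -0.54, -0.5 or -0.54 and passed, as it did at -0.62 on library totals without TMM factors. The difference of the IFNγ effects between siRNAs was 0.47 (95% interval 0.2 to 0.75, adjusted p = 0.0274). It was under the fold threshold in the fit of all libraries and reached 0.5 to 0.55 without Cnsi replicate 1 or 2, Cnsi IFNγ replicate 1 or 2 or PD-L1si IFNγ replicate 2.

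PAX2, the closest relative of PAX8 among these genes, did not pass the test in any A498 comparison. The counts were 856, 838 and 858 in Cnsi, 853, 891 and 766 in Cnsi IFNγ, 1051, 821 and 1083 in PD-L1si, and 930, 618 and 786 in PD-L1si IFNγ. The lowest and the highest library in CPM, 32.6 and 40.6, both belonged to PD-L1si IFNγ. The mean was 33.9 ± 0.493 CPM in Cnsi, 35.8 ± 1.15 in Cnsi IFNγ, 36.7 ± 2.01 in PD-L1si and 37.1 ± 4.09 in PD-L1si IFNγ. The 95% intervals of its log2 fold changes were -0.05 to 0.2 and -0.1 to 0.14 for IFNγ (in Cnsi and in PD-L1si) and -0.06 to 0.18 and 0 to 0.24 for PD-L1si (with and without IFNγ), so all of them lay within the fold threshold.

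In A498, 2 of the 4 factors tested were called with IFNγ in Cnsi, both lower, where 36.8% of all 20916 genes tested were called. Also 2 were called with IFNγ in PD-L1si (33.5% of genes), 2 with PD-L1si under IFNγ (10.1%) and 1 with PD-L1si without IFNγ (8.48%). In the difference of IFNγ effects between siRNAs, edgeR called 0 of 4 (2.45% of genes), with 2 at an unadjusted p under 0.05 and 0 called by DESeq2. With the adjusted p alone, 3 of 4 factors passed with IFNγ in Cnsi (61.3% of genes), 3 with IFNγ in PD-L1si (58.5%), 2 with PD-L1si under IFNγ (34.1%), 2 without IFNγ (30.8%) and 2 in the difference (9.08%).

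In 786-O the log2 fold changes of PAX8 and LHX1 were smaller in size than in A498. Those of PAX8 with IFNγ had the opposite sign, and not every difference between the lines passed the test given below. PAX8 counts were 6760, 6215 and 5965 in Cnsi, 6296, 6894 and 6619 in Cnsi IFNγ, 6666, 6173 and 6611 in PD-L1si, and 6309, 7069 and 6465 in PD-L1si IFNγ. All 4 groups lay within 202 to 261 CPM, with means of 214 ± 8.62, 247 ± 18.7, 217 ± 14.5 and 240 ± 5.86. IFNγ gave a log2 fold change of 0.21 in Cnsi (SE 0.0558, adjusted p = 0.00433) and 0.14 in PD-L1si (adjusted p = 0.0419), both under the fold threshold. On library totals without TMM factors they were 0.07 and 0.01, so the size of this small difference depends on the scaling. PD-L1si gave -0.04 under IFNγ (95% interval -0.15 to 0.06) and 0.02 without it (-0.09 to 0.13).

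LHX1 was higher with PD-L1si in 786-O too. Its counts were 1090, 960 and 984 in Cnsi and 900, 935 and 799 in Cnsi IFNγ, against 1526, 1406 and 1538 in PD-L1si and 1194, 1343 and 1182 in PD-L1si IFNγ. Both PD-L1si groups (42.6 to 52.9 CPM) lay above both Cnsi groups (31.5 to 34.8 CPM), while within each siRNA the groups with and without IFNγ overlapped. LHX1 rose with PD-L1si without IFNγ by 0.54 (SE 0.0588, adjusted p = 3.72e-07). Under IFNγ the value was 0.45 (SE 0.06, adjusted p = 7.13e-06), under the fold threshold. IFNγ gave -0.07 in Cnsi (95% interval -0.18 to 0.05) and -0.15 in PD-L1si (-0.26 to -0.04, adjusted p = 0.0442).

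Of the 2 factors tested in 786-O, 1 was called with PD-L1si without IFNγ, where 2.81% of 21209 genes were called. With IFNγ in Cnsi edgeR and DESeq2 called 0 of 2 (18.5% of genes) and 1 had an unadjusted p under 0.05. The counts called were also 0 by both tools with IFNγ in PD-L1si (18.4%), where 2 had an unadjusted p under 0.05, and with PD-L1si under IFNγ (3.03%), where 1 did. In the difference of IFNγ effects they were 0 by both tools (0.099%), with 0 at an unadjusted p under 0.05. With the adjusted p alone, 1 of 2 passed with IFNγ in Cnsi (38.8% of genes), 2 with IFNγ in PD-L1si (38.5%), 1 with PD-L1si under IFNγ (14%), 1 without IFNγ (12.8%) and 0 in the difference (0.217%).

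**Figure D2:**
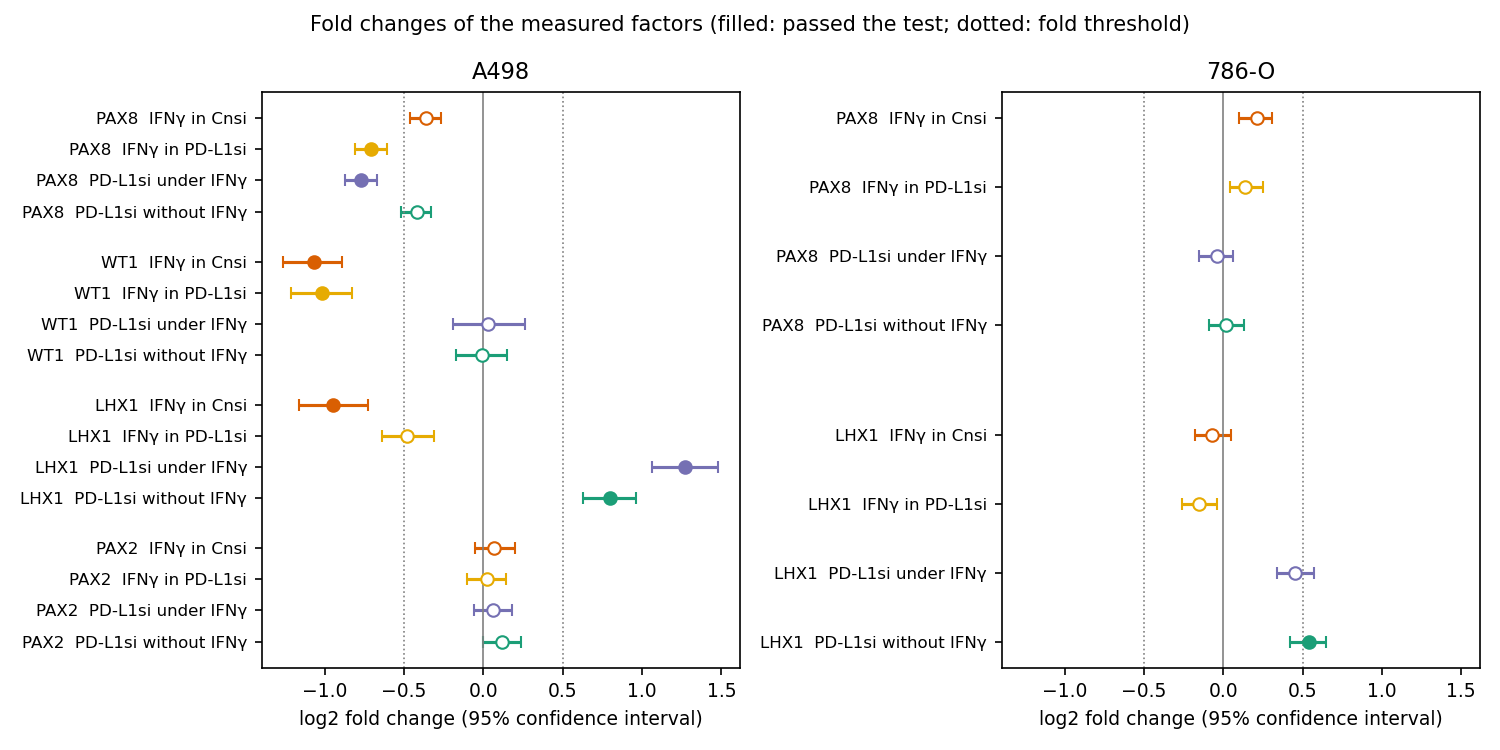
Log2 fold changes of the factors tested in each line (horizontal axis) for 4 comparisons, with 95% confidence intervals. Filled points passed the test, open points did not, and dotted lines mark the fold threshold of 0.5. WT1 is at -1.07 and -1.02 with IFNγ, LHX1 reaches 1.27 with PD-L1si in A498, and the values of PAX2 lie near 0.

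The same changes were then compared between the lines for the 2 factors measured in both, in a joint fit of all 24 libraries. The IFNγ effect in Cnsi was higher in 786-O than in A498 by 0.56 for PAX8 (SE 0.0794, adjusted p = 2.04e-07) and by 0.88 for LHX1 (SE 0.124, adjusted p = 1.64e-07), so both factors were called (28.4% of genes were). In PD-L1si cells the difference in the IFNγ effect was 0.86 for PAX8 (SE 0.0808, adjusted p = 2.78e-11), and 0.33 for LHX1 (adjusted p = 0.00957), under the fold threshold. There 1 of 2 was called (25.9% of genes). The PD-L1si effect under IFNγ was higher in 786-O by 0.74 for PAX8 (SE 0.0809, adjusted p = 1.41e-08) and lower by 0.8 for LHX1, as a log2 difference of -0.8 (SE 0.124, adjusted p = 6.32e-06). Both were called (5.6% of genes). Without IFNγ, edgeR called 0 of 2 (4.48% of genes), with 0.45 for PAX8 (95% interval 0.29 to 0.6, adjusted p = 8.45e-05) and -0.25 for LHX1 (-0.46 to -0.05, adjusted p = 0.118), and 2 had an unadjusted p under 0.05. The 3-way difference, that of the siRNA by IFNγ interaction between lines, was not called for either (0 of 2, 1.54% of genes, 2 at an unadjusted p under 0.05). These comparisons were not run in DESeq2, and line and instrument cannot be told apart in any of them. CD274 fell less with PD-L1si in 786-O than in A498, by a log2 difference of 1.87 under IFNγ (adjusted p = 3.11e-18). Without IFNγ that difference was 1.06 (adjusted p = 0.00189). The PD-L1si effects were thus compared at unequal silencing of CD274 RNA, and its bearing on the factors was not tested.

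3 of the factors share their locus with a noncoding RNA that was also measured. PAX8-AS1 spans chr2:113211421-113276581 on the plus strand, within and beyond PAX8, and 1651 bases of exon overlap. Its counts were 17.9% to 22.8% of those of PAX8 in A498 and 20.4% to 23.5% in 786-O. In A498 PAX8-AS1 gave -0.58 for IFNγ in Cnsi (adjusted p = 7.32e-08), -0.72 for IFNγ in PD-L1si (adjusted p = 1.09e-08) and -0.64 for PD-L1si under IFNγ (adjusted p = 5.31e-07). All 3 were called, the first no longer without Cnsi IFNγ replicate 2 (-0.47), and PD-L1si without IFNγ gave -0.5 (adjusted p = 2.81e-06), just under the threshold but -0.54 and called without Cnsi replicate 1. In 786-O its values were between 0.03 and 0.12 and none passed. Counting was set to the read strand, but whether the setting matches the strand that the kit reads was not tested, so reads of PAX8 and PAX8-AS1 over shared exons may not be told apart.

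LHX1-DT starts 115 bases from LHX1 on the opposite strand and has no base in common with it. In A498 its counts were 89, 99 and 110 in Cnsi, 75, 88 and 66 in Cnsi IFNγ, 127, 91 and 125 in PD-L1si, and 93, 76 and 85 in PD-L1si IFNγ. No comparison of LHX1-DT was called in either line. Its log2 fold changes with PD-L1si were 0.32 under IFNγ (95% interval 0.06 to 0.58, adjusted p = 0.058) and 0.11 without it (-0.12 to 0.34) in A498, where those of LHX1 were 1.27 and 0.8. Set against the counts of LHX1, those of LHX1-DT ran from 29.2% in PD-L1si to 83.5% in Cnsi IFNγ in A498, and from 32% to 54.9% in 786-O.

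WT1-AS begins 46 bases inside WT1 on the opposite strand, with 47 bases shared. In A498 it had 29, 32 and 38 counts in Cnsi and 21, 26 and 15 in Cnsi IFNγ, and 34, 27 and 33 in PD-L1si and 29, 10 and 19 in PD-L1si IFNγ. Set against the counts of WT1, they ran from 9.64% to 19.9% over all A498 libraries. It fell with IFNγ in Cnsi by 0.58 (SE 0.243, adjusted p = 0.0384), but the call was lost with DESeq2 (adjusted p = 0.116), with no filter on low counts (0.0568) and without any of 7 of the 12 libraries, at adjusted p of 0.0503 to 0.155, while the log2 fold change stayed between -0.46 and -0.6. Those were Cnsi replicates 2 and 3, Cnsi IFNγ replicates 1 and 3 and PD-L1si replicates 1, 2 and 3. With PD-L1si the change with IFNγ was -0.34 (95% interval -0.83 to 0.15, adjusted p = 0.252), which did not pass. Leaving out 1 library moved it between -0.09 and -0.68, and it was called without PD-L1si IFNγ replicate 1 (adjusted p = 0.0469).

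**Figure D3:**
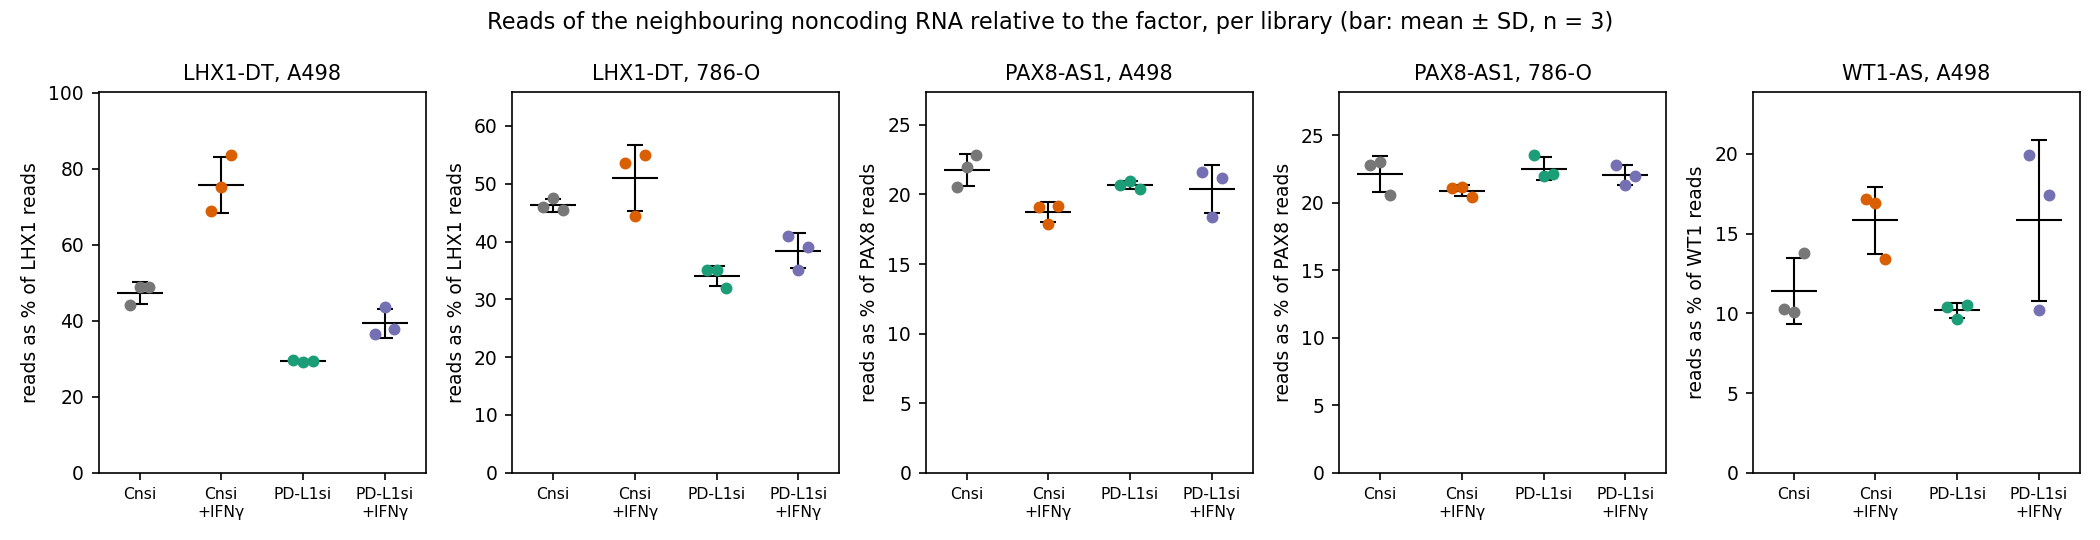
Counts of LHX1-DT, PAX8-AS1 and WT1-AS as a percentage of the counts of the neighbouring factor (vertical axes, from 0) in each library, by group. Points are libraries and bars are the mean ± SD of 3 libraries. PAX8-AS1 keeps to 17.9% to 23.5% of PAX8 in every library of both lines, whereas LHX1-DT spreads from 29.2% to 83.5% of LHX1 in A498.

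Other kidney transcription factors, a list of 65 genes beside the 6 factors, were set beside them. In A498, 48 were tested, and with IFNγ in Cnsi 8 rose and 16 fell, 16.7% and 33.3%, against 18.2% and 18.5% of all genes. The median log2 fold change of the list was -0.1, against -0.03 over all genes tested. PPARGC1A, the coactivator of mitochondrial genes, fell from 26.6 ± 1.19 to 4.69 ± 0.404 CPM (log2 -2.49, adjusted p = 3.82e-24). HOXC10, a posterior HOX gene, fell from 7.08 ± 0.0346 to 2.07 ± 0.204 CPM (log2 -1.77, adjusted p = 4.17e-15).

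With PD-L1si under IFNγ in A498, 13 of the 48 rose and 2 fell, 27.1% and 4.17%, against 4.36% and 5.75% of all genes, with a median of 0.23 against 0.01. ESRRG, an orphan nuclear receptor, rose from 0.692 ± 0.115 to 2.8 ± 0.523 CPM (log2 2.01, adjusted p = 9.78e-10). PPARGC1A rose by 1.29 (adjusted p = 5.83e-13) to 11.5 ± 1.01 CPM, still below Cnsi without IFNγ, and HES1, an effector of Notch, rose by 1.06 (adjusted p = 4.65e-07). The 2 that fell were HOXA11 (-0.87) and FOXD1 (-0.55), which are named for being the only ones to fall. Without PD-L1si IFNγ replicate 3 the number that fell was 1. PAX8 at -0.77 and LHX1 at 1.27 stood on either side of this list's median. Without IFNγ, 5 of the 48 rose (10.4%, against 2.87% of genes) and edgeR and DESeq2 called 0 lower (5.6% of genes), with 7 lower at an unadjusted p under 0.05. Leaving out Cnsi replicate 1 or PD-L1si replicate 1 or 2 gave 1 lower.

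In 786-O, 9 rows of this list were at 0 in all libraries and are treated as not measured there. The genes tested are therefore not the same as in A498. In 786-O 45 were tested, and 6 rose and 12 fell with IFNγ in Cnsi, 13.3% and 26.7%, against 11.1% and 7.39% of all genes. ZNF395, a zinc finger factor, fell from 151 ± 6.08 to 44.8 ± 3.78 CPM (log2 -1.75, adjusted p = 4.03e-19). BHLHE41, a circadian repressor, fell by 1.26 (adjusted p = 1.07e-08). With PD-L1si under IFNγ 3 rose and 1 fell, 6.67% and 2.22%, against 1.29% and 1.74% of genes. HOXA11, which patterns the metanephric mesenchyme, was the one that fell, from 88.1 ± 2.33 to 52.2 ± 1.63 CPM (log2 -0.75, adjusted p = 6.8e-11), and PPARGC1A (0.77) and BHLHE41 (0.74) were among the 3 that rose. Without Cnsi IFNγ replicate 3 or PD-L1si IFNγ replicate 2 the number that fell was 2. The list's medians were 0.01 with IFNγ and 0.08 with PD-L1si under IFNγ.

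**Figure D4:**
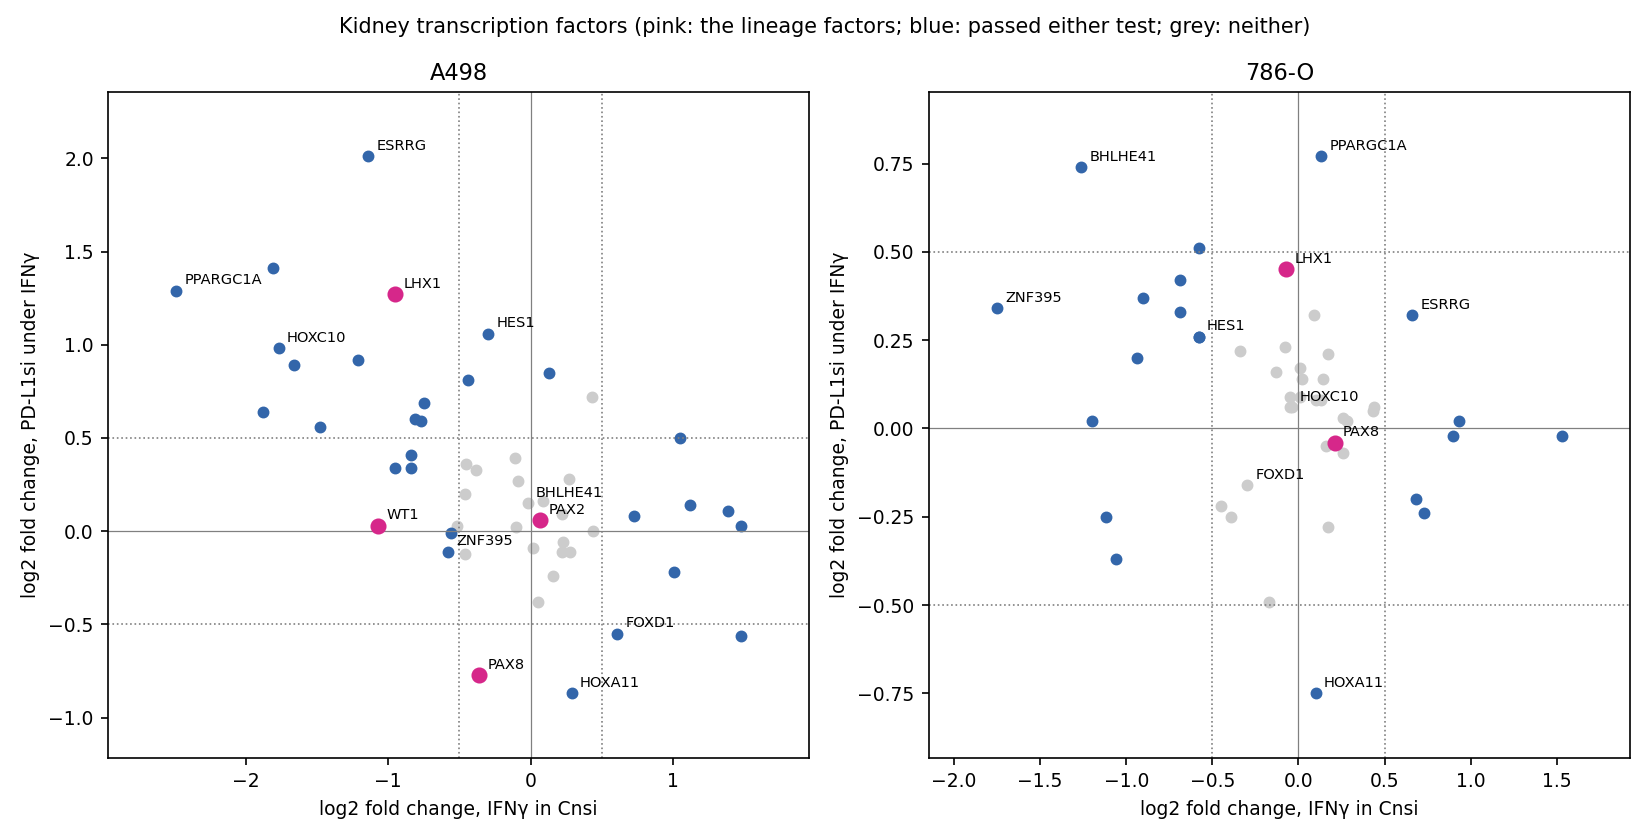
Log2 fold change with IFNγ in Cnsi (horizontal axis) against that with PD-L1si under IFNγ (vertical axis) for the kidney transcription factors tested in each line. Pink points are the lineage factors, blue points passed either test, grey points neither, and dotted lines mark 0.5. The axes share the Cnsi IFNγ libraries, so their relation is not a result, and in A498 PAX8 (-0.36 and -0.77) lies low on both while LHX1 (-0.95 and 1.27) lies among the factors at upper left.

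Proximal tubule genes, among them transporters and enzymes of the segment in which ccRCC is thought to arise, were measured too. In A498, 36 of 52 were tested, and 6 rose and 16 fell with IFNγ in Cnsi, 16.7% and 44.4%, against 18.2% and 18.5% of genes, with a median of -0.37. On library totals without TMM factors the counts were 3 and 16. SLC17A1, a phosphate and urate transporter, fell from 53 to 68 counts a library to 1 to 2 (log2 -5.24, 95% interval -5.97 to -4.51). SLC17A3, its relative, fell by 2.75 from 13.3 ± 0.854 CPM, and PDZK1, the scaffold of apical transporters, fell by 2.13 from 125 ± 5.03 CPM. With PD-L1si under IFNγ 5 rose (13.9% against 4.36% of genes, median 0.15) and edgeR and DESeq2 called 0 lower (5.75% of genes), with 6 lower at an unadjusted p under 0.05. GATM, the first enzyme of creatine synthesis, rose by 0.97 (adjusted p = 0.000393). SLC17A1 (1.98, adjusted p = 0.0173) and KHK, ketohexokinase (0.71, adjusted p = 0.0212), also rose, but SLC17A1 lost its call without Cnsi IFNγ replicate 1 or 2 or PD-L1si IFNγ replicate 2 (adjusted p of 0.0601 to 0.0685), and KHK without Cnsi IFNγ replicate 1 (0.153) or PD-L1si IFNγ replicate 3 (0.134). The count of 5 became 2 without Cnsi IFNγ replicate 1 or PD-L1si IFNγ replicate 3 and 3 without Cnsi IFNγ replicate 2, and 1 gene was called lower without Cnsi IFNγ replicate 2 or PD-L1si IFNγ replicate 1.

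Of the proximal tubule rows, 10 were at 0 in all 786-O libraries and are treated as not measured there, so the genes tested differ from those of A498. In 786-O, 30 proximal tubule genes were tested, and 8 rose and 9 fell with IFNγ in Cnsi, 26.7% and 30%, against 11.1% and 7.39% of genes, with a median of -0.05. SLC22A2, the organic cation transporter OCT2, rose from 0.317 ± 0.052 to 16.8 ± 2.37 CPM (log2 5.72, adjusted p = 4.1e-20). VCAM1, an adhesion molecule of injured tubule cells, rose by 1.46 from 114 ± 3.61 CPM, and SLC17A3 fell by 1.41 (adjusted p = 2.8e-06). With PD-L1si under IFNγ 2 rose and 2 fell, 6.67% in each direction, against 1.29% and 1.74% of genes, with a median of 0.14. SLC17A3 rose by 1.13 (adjusted p = 0.000519), SLC47A1, the transporter MATE1, fell by 0.67 (adjusted p = 2.34e-05) and KHK fell by 0.59 (adjusted p = 0.00246), the last not called without Cnsi IFNγ replicate 2 (-0.46). Then 1 fell, and the count of 2 that rose became 1 with DESeq2 or without Cnsi IFNγ replicate 1 or PD-L1si IFNγ replicate 2 or 3.

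A list of 45 genes that textbooks name downstream of these factors or of others that act beside them in the tubule was followed last. In A498, 28 were tested, and 7 rose and 14 fell with IFNγ in Cnsi, 25% and 50%, against 18.2% and 18.5% of genes, with a median of -0.57. CLDN2, the paracellular cation pore of the proximal tubule, fell from 48.6 ± 2.78 to 0.518 ± 0.115 CPM (log2 -6.52, adjusted p = 1.51e-32). FGB, fibrinogen beta, a chain of the clotting protein, fell from 7.4 ± 0.401 to 0.212 ± 0.0206 CPM (log2 -5.08), and CDH6, K-cadherin of renal progenitors, fell from 513 ± 22.9 to 43.2 ± 6.35 CPM (log2 -3.57, adjusted p = 4.63e-18). With PD-L1si under IFNγ 9 rose and 4 fell, 32.1% and 14.3%, against 4.36% and 5.75% of genes, with a median of 0.29. CDH1, E-cadherin, rose by 2.27 (adjusted p = 1.3e-11), CLDN2 by 2.26 (adjusted p = 4.3e-10), to 2.51 ± 0.543 CPM, and CDH6 by 1.37 (adjusted p = 7.68e-11), to 112 ± 7.81 CPM.

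Of the downstream rows, 7 were at 0 in all 786-O libraries and are treated as not measured there, so the genes tested again differ from those of A498. In 786-O, 26 downstream genes were tested, and 4 rose and 6 fell with IFNγ in Cnsi, 15.4% and 23.1%, against 11.1% and 7.39% of genes, with a median of -0.18, and on library totals without TMM factors 1 and 8. EGR1, an immediate early gene that WT1 can repress, fell by 1.78 (adjusted p = 0.00886) with libraries of 44 to 128 counts in Cnsi IFNγ, PKHD1, the fibrocystin gene, fell by 1.69 (adjusted p = 7.05e-06), and CDH17, LI-cadherin, fell by 1.04 (adjusted p = 3.79e-13). With PD-L1si under IFNγ 5 rose (19.2% against 1.29% of genes, median 0.21) and edgeR and DESeq2 called 0 lower (1.74% of genes), with 4 lower at an unadjusted p under 0.05. CDH16, the kidney-specific cadherin known as a target of PAX8, rose by 0.69 (adjusted p = 9.22e-09) from 19.4 ± 0.635 to 31.3 ± 0.379 CPM. PKHD1 rose by 1.09 (adjusted p = 0.00931) but not without PD-L1si IFNγ replicate 3 (adjusted p = 0.065), and CLDN2 by 0.58 (adjusted p = 9.39e-05) but to 0.47, under the threshold, without Cnsi IFNγ replicate 1. Without Cnsi IFNγ replicate 1 or PD-L1si IFNγ replicate 2 or 3 the 5 became 3, and 1 gene was called lower without Cnsi IFNγ replicate 1 or 3 or PD-L1si IFNγ replicate 3. WT1 was not measured in 786-O. In A498, where WT1 fell with IFNγ, EGR1 went from 7.55 ± 0.365 to 15.8 ± 0.874 CPM with IFNγ in Cnsi. CDH16 in A498 was 34.8 ± 1 CPM in Cnsi and 13.6 ± 0.569 in Cnsi IFNγ. With PD-L1si CDH16 was 55.1 ± 2.2 CPM without IFNγ and 28.2 ± 2.52 with it. So CDH16 was higher with PD-L1si, where PAX8 was lower, and lower with IFNγ, as PAX8 was. Links of these genes to WT1 or PAX8 were not tested. No list was tested as a set.

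The remaining comparisons gave these counts. With IFNγ in PD-L1si in A498 10 kidney transcription factors rose and 11 fell, as did 6 and 17 proximal tubule genes and 9 and 15 downstream genes, against 17.6% up and 15.9% down over all genes. In 786-O the counts were 10 and 8, 9 and 9, and 3 and 4, against 11% and 7.45%. On library totals without TMM factors the kidney transcription factors were 7 and 15 in A498 and 6 and 12 in 786-O, and the downstream genes of 786-O were 2 and 5. With PD-L1si without IFNγ, 2 proximal tubule genes rose and 3 fell in A498 and 9 downstream genes rose and 2 fell, against 2.87% and 5.6% of all genes. On library totals without TMM factors the proximal tubule genes there were 5 and 2. In 786-O 1 kidney transcription factor rose and 1 fell, 4 proximal tubule genes rose and 3 fell, and 3 downstream genes rose and 2 fell, against 1.19% and 1.63% of all genes. The IFNγ effect was higher in PD-L1si than in Cnsi in A498 for 5 kidney transcription factors (ESRRG, HOXC10 and PPARGC1A among them, at 1.08, 0.95 and 0.83), for 1 proximal tubule gene, SLC4A4 (0.62), and for 5 downstream genes, against 1.81% of genes. It was lower for 0 of them by edgeR and DESeq2 (0.645% of genes), with 2, 3 and 3 at an unadjusted p under 0.05. In 786-O it was higher for 1 kidney transcription factor, ZNF395 (0.56), against 0.0377% of genes, and both tools called 0 lower (0.0613% of genes; 0 at an unadjusted p under 0.05). The genes named in these counts of interaction were chosen after their values were seen. There both tools called 0 proximal tubule and 0 downstream genes, with 3 raised and 1 lowered in each list at an unadjusted p under 0.05.

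Several of these small counts rest on single libraries. In A498 the 5 kidney transcription factors of the interaction were 3 without Cnsi IFNγ replicate 1 and 3 with DESeq2, 1 was lower without PD-L1si IFNγ replicate 1, SLC4A4 was joined by another gene (2) without PD-L1si IFNγ replicate 2, and the 2 proximal tubule genes raised by PD-L1si without IFNγ were 4 without PD-L1si replicate 1. In 786-O ZNF395 was no longer called without Cnsi IFNγ replicate 1 (0.49). With PD-L1si without IFNγ there, the kidney transcription factor that rose was lost without PD-L1si replicate 3 (0), and those that fell became 2 without Cnsi replicate 1 or Cnsi IFNγ replicate 1 and 3 without Cnsi replicate 2 or PD-L1si replicate 3. The 2 downstream genes that fell became 1 without Cnsi replicate 2 or PD-L1si replicate 1 or 3.

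The genes with the most similar profiles over the 12 libraries of a line were found by Pearson's r of log2 CPM, as a description across libraries that share groups and depth. Over 14963 genes in A498, the genes most like PAX8 included MFGE8 (r = 0.982) and TBC1D2 (0.982). Those most like LHX1 included ZBTB5 (0.987) and SUSD4 (0.984), and WT1 was closest to POLR2H (0.995) and PRR11 (0.992). For PAX2 the named genes reached only 0.868 (MRPL12) and 0.853 (SEMA3F-AS1). Over 14170 genes in 786-O, PAX8 was closest to TYK2 (0.958) and PGS1 (0.953), and LHX1 to NKAIN4 (0.978), EDN2 (0.975) and R3HCC1 (0.973). In A498 an unnamed gene, ENSG00000243679, came first for PAX2 (0.902) and another, ENSG00000242396, stood beside PRR11 for WT1 (0.992), as did ENSG00000256433 between TYK2 and PGS1 for PAX8 in 786-O (0.954).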

How the data were processed

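Raw gene counts deposited by the authors were used as they stand. The authors trimmed paired reads (Trimmomatic 0.36.6), aligned them to GRCh38 (HISAT2 2.1.0) and counted exon reads by gene (featureCounts 1.6.3, stranded, GENCODE 33). Names and positions came from GENCODE 44, which matched 39148 of 39321 identifiers, all but 173. A gene was tested in a line if the 3 libraries of at least 1 group summed to 10 counts or more (20916 in A498, 21209 in 786-O) with the quasi-likelihood F-test of edgeR 4.0.16 (R 4.3.3, TMM, robust, 1 mean per group), adjusted by Benjamini-Hochberg over all genes tested, and called at an adjusted p under 0.05 and a log2 fold change over 0.5 in size. Differences between lines were tested in a fit of all 24 libraries. TPM used the union of exons. In simulated data 198 (A498) and 199 (786-O) of 200 genes changed by a log2 of 1 were recovered for IFNγ in Cnsi. Of the unchanged genes 3 and 5 were called. The 200 were drawn from the better counted of the genes tested, with a single fixed spread in each line. Recovery of low-count rows such as WT1-AS was therefore not tested. DESeq2 1.42.0, RLE scaling, other filters, the replicate block, raw totals and leaving out each library were the alternatives. The named genes were the 6 factors, their locus RNAs, the 3 genes of each list with the largest called change at a mean of at least 1 CPM (for IFNγ in Cnsi and PD-L1si under IFNγ), and the 3 most similar genes. Some genes and motifs that these rules name are not reported here. The factors, lists and rules were chosen with earlier results of these data known. Replicate numbers are not known to pair samples.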

Additional observations from a re-analysis of the deposited data

Results flagged for a closer look

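Each result here was raised because an effect differed between the lines or between the siRNAs by a test of the difference itself. Differences between lines had to pass the fold threshold too, while those between siRNAs needed only an adjusted p under 0.05. By the adjusted p alone, the PD-L1si effect without IFNγ would also be raised between lines for PAX8 (0.45). The same holds for the IFNγ effect in PD-L1si for LHX1 (0.33). Between lines (786-O minus A498, log2), the IFNγ effect in Cnsi differed by 0.56 for PAX8 and 0.88 for LHX1, the IFNγ effect in PD-L1si by 0.86 for PAX8, and the PD-L1si effect under IFNγ by 0.74 for PAX8 and -0.8 for LHX1. Between siRNAs in A498 (PD-L1si minus Cnsi), the IFNγ effect differed by -0.35 for PAX8 and 0.47 for LHX1, both with an adjusted p under 0.05 and under the fold threshold. Line and sequencing instrument cannot be told apart, and CD274 fell less with PD-L1si under IFNγ in 786-O (log2 difference 1.87).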

How the results depend on the processing

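For the 4 factors tested, 643 of 664 values under the alternatives kept their side of the threshold, 21 passed where they had not and 0 lost a call. In 38 of the 664 only the fold threshold was dropped, so no call could be lost there, and these gave 11 of the 21. Another 360 came from fits without 1 library, which share the other libraries with the main fit. The total is thus not a count of independent checks. The sign changed in 17 of the 664, for 8 results of PAX2, WT1 and PAX8 that were within 0.07 of 0 on the log2 scale, and 0 of these were called. With the adjusted p alone and no fold threshold, the factors called became 3 (IFNγ in Cnsi, A498), 3 (IFNγ in PD-L1si, A498), 1 (IFNγ in Cnsi, 786-O), 2 (IFNγ in PD-L1si, 786-O), 1 (PD-L1si under IFNγ, 786-O), 2 (PD-L1si without IFNγ, A498), 2 (interaction, A498), 2 (line difference, IFNγ in PD-L1si) and 1 (line difference, PD-L1si without IFNγ). Leaving out 1 library moved the interaction count in A498 between 0 and 1, and the count with IFNγ in PD-L1si there between 2 and 3. On raw library totals, chosen after seeing the data, the order of group means was kept in 3 of 6 combinations of factor and line, and the median gene shifted by -0.14 for IFNγ and by 0.1 for PD-L1si in A498. In A498 the PAX8 mean in PD-L1si then stood above that in Cnsi IFNγ. The replicate block changed no call of the factors (38 of 38 values), and libraries of the same number did not deviate together (mean correlation 0.0353 in A498 and 0.0447 in 786-O). Without TMM factors the proximal tubule genes raised by IFNγ in Cnsi in A498 became 3 (6 with them), the kidney factors lowered by PD-L1si under IFNγ in A498 1 (2), the kidney factors raised by PD-L1si without IFNγ in A498 8 (5) and by IFNγ in PD-L1si in 786-O 6 (10), the proximal tubule genes raised by PD-L1si without IFNγ in A498 5 (2), and the downstream genes raised by IFNγ in Cnsi in 786-O 1 (4). With the adjusted p alone the list counts grew. Smaller changes of list counts, here or on leaving out 1 library, are not all listed. Given as raised and lowered, with the counts at the fold threshold in brackets, kidney transcription factors became 14 and 20 (8 and 16) with IFNγ in Cnsi, 16 and 19 (10 and 11) with IFNγ in PD-L1si, 23 and 5 (13 and 2) with PD-L1si under IFNγ, 17 and 7 (5 and 0) without IFNγ and 13 and 0 (5 and 0) in the interaction in A498, and 14 and 16 (6 and 12), 17 and 12 (10 and 8), 12 and 3 (3 and 1), 8 and 6 (1 and 1) and 1 and 0 (1 and 0) in 786-O. With PD-L1si under IFNγ and without it, proximal tubule genes became 12 and 4 (5 and 0) and 7 and 5 (2 and 3) in A498 and 9 and 6 (2 and 2) and 7 and 4 (4 and 3) in 786-O, and downstream genes 14 and 5 (9 and 4) and 12 and 3 (9 and 2) in A498 and 8 and 3 (5 and 0) and 5 and 5 (3 and 2) in 786-O. Downstream genes became 6 and 8 (3 and 4) with IFNγ in PD-L1si in 786-O and 6 and 1 (5 and 0) in the A498 interaction, where proximal tubule genes became 4 and 0 (1 and 0). With DESeq2, proximal tubule genes raised by PD-L1si without IFNγ became 1 (2) in A498, also with the filterByExpr filter, and 2 (4) in 786-O, and those raised by PD-L1si under IFNγ in 786-O 1 (2). Kidney factors raised in the A498 interaction became 3 (5) with DESeq2, proximal tubule genes raised there 2 (1) among protein-coding genes only, and kidney factors lowered by PD-L1si without IFNγ in 786-O 2 (1) with no filter on low counts. The cause was not tested. HNF4A in A498 and EMX2 in both lines had too few counts to be tested, and WT1-AS had 10 to 38 counts a library in A498.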
